A study of Rattus norvegicus with 30 samples.

Results

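The genes described are the cytochrome P450 genes of rat liver outside the Cyp2c and Cyp3a subfamilies, leaving out Cyp51, Cyp7a1, Cyp8b1 and Cyp27a1. They were chosen by name: a probe set that listed a single gene symbol beginning with Cyp and a digit, with the probe set of highest mean over the 30 arrays standing for its gene. The rule found 43 genes, with 50 probe sets, of the 14218 genes that the array measures with a probe set of a single gene. Family 1 had 3 genes, family 2 had 18, family 4 had 10, and 12 genes belonged to the other families. A further 7 probe sets listed several P450 genes and were left out, since their signal cannot be assigned to one of them. The rule takes genes by symbol alone. Signal entered in picking the probe set of a gene and, later, the genes to test.

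Cytochrome P450 enzymes are membrane-bound haem proteins that insert an oxygen atom into their substrate, with electrons handed on from NADPH by P450 oxidoreductase in the endoplasmic reticulum or by ferredoxin in mitochondria. Hepatocytes hold most of the body's P450: enzymes of families 1 and 2 act mainly on drugs, carcinogens and steroids, those of family 4 mainly on fatty acids and eicosanoids at the end of the chain, and other families on sterols, steroid hormones and retinoic acid. In the rat, several family 2 genes differ between the sexes in adult liver through the pattern of growth hormone release, and others follow nuclear receptors or the aryl hydrocarbon receptor.

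The study asked how age and a supplement of R-α-lipoic acid (LA), a dithiol cofactor and antioxidant, alter liver gene expression. Male Fischer 344 rats, an inbred strain, were 3 months old (young) or 24 months old (old), and all were fed the purified AIN-93M diet, either plain (control) or with LA at 0.2%, for 2 weeks of modified pair-feeding. RNA came from the median lobe, and each animal was measured on 1 Affymetrix Rat Genome 230 2.0 array: 8 young and 8 old animals on the control diet, and 8 young and 6 old animals on LA, since 2 old LA animals died during feeding. The sources used here do not give the hour of tissue collection or the fasting state. Values are the authors' log2 signals per probe set, and a difference of 1 on that scale is a 2-fold change in signal.

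Array medians lay between 5.20 and 5.46 log2, and no 2 arrays held identical values. Old control 5 and old LA 2 stood apart from the arrays of their groups. Of the 32 P450 genes with enough signal to test, old control 5 had the lowest value of its group for 22 and the highest for 7, and 23 lay more than 2-fold from the mean of the other old controls. Its median P450 value was 1.66 log2 below the other animals of its group. Old LA 2 had the lowest value of its group for 23 genes and the highest for 4, with 8 genes more than 2-fold from the other old LA animals and a median deviation of -0.55. Seen against young controls, the median P450 gene lay at -1.60 in old control 5 and at -0.68 in old LA 2, between -0.48 and -0.10 in the other 7 old controls, and between -0.15 and -0.10 in the other 5 old LA animals. P450 results that rest on either array are given with and without it. Single genes outside the P450s are given with all arrays.

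**Figure D1:**
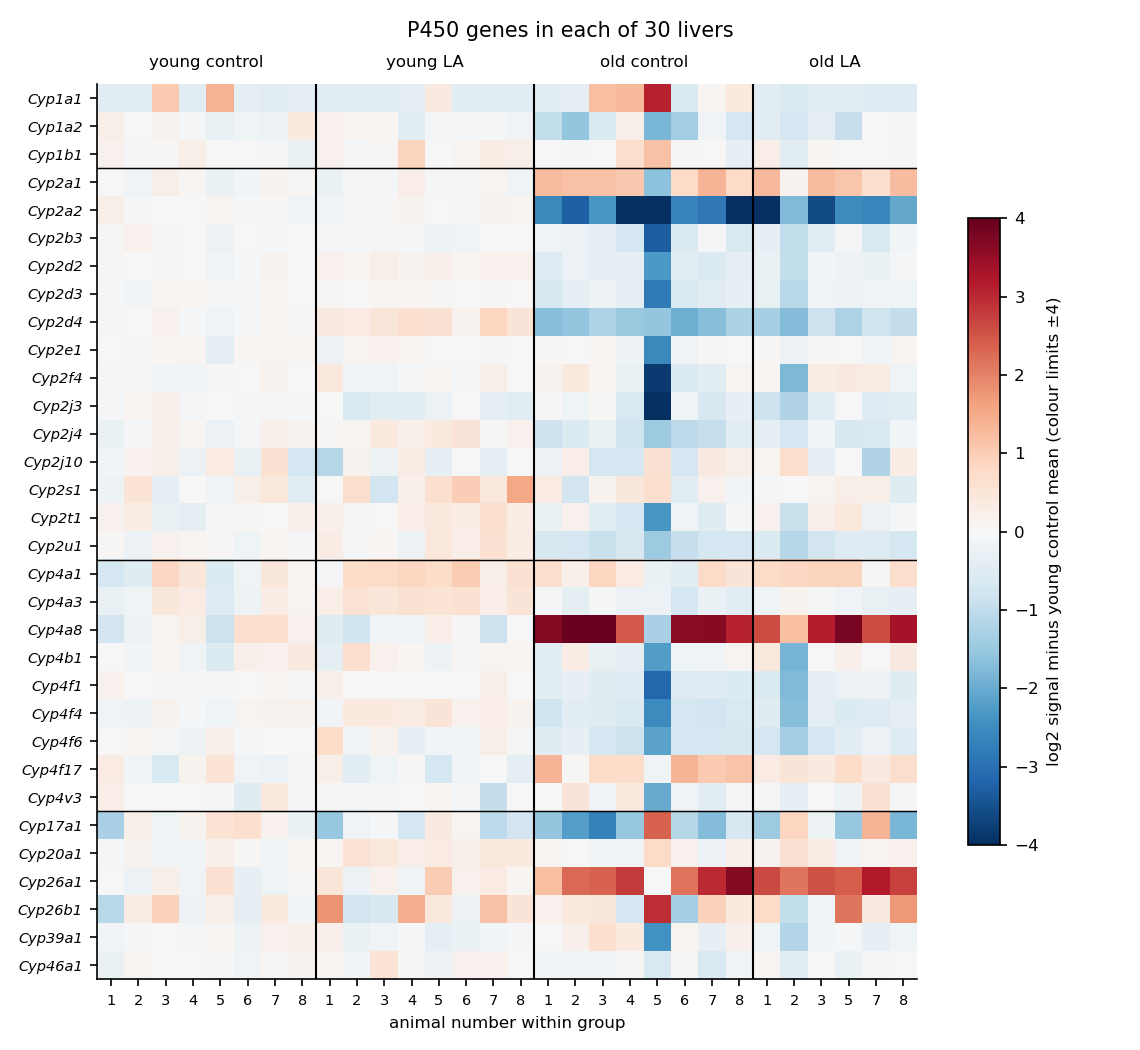
Log2 signal of the 32 tested P450 genes (rows, in the order families 1, 2, 4 and the rest) in each of the 30 animals (columns), as the difference from the young control mean of that gene; colours saturate at ±4. The column of old control 5 is blue for most rows and that of old LA 2 is paler blue in many of the same rows, while Cyp2a2 is blue and Cyp4a8 and Cyp26a1 are red across nearly all old animals.

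Markers of other liver cell types differed in the same arrays. The mean log2 signal of 12 T and NK cell markers was 10.4 in old control 5 and 9.65 in old LA 2, against medians of 7.63 over the 8 old controls, 7.54 over the 6 old LA animals and 5.43 over young controls. These means ran from 5.07 to 5.62 in young controls, 5.29 to 5.60 in young LA animals, 6.10 to 10.4 in old controls and 5.95 to 9.65 in old LA animals, so that every old animal lay above every young one. For 11 stellate cell and matrix genes it was 9.95 and 8.26 in those arrays, and for 5 bile duct and progenitor genes it was 8.85 and 7.70. Lists of genes of hepatocytes differed in this respect. The mean of 10 secreted plasma protein genes, which are among the brightest probe sets of the array, was 15.8 in old control 5 and 15.6 in old LA 2, where all animals lay between 15.6 and 15.8. In old control 5 the means of 15 periportal genes, 21 nuclear receptors and liver factors and 5 electron donor genes were the lowest of the old controls, at 11.9, 8.57 and 11.6, against group medians of 12.5, 9.72 and 12.7. Values of old controls 6 and 7 for the T and NK cell markers, 9.04 and 9.57, were nearly as high as that of old LA 2, with median P450 shifts of -0.48 and -0.29. The part of these cells in the P450 values was not tested.

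**Figure D2:**
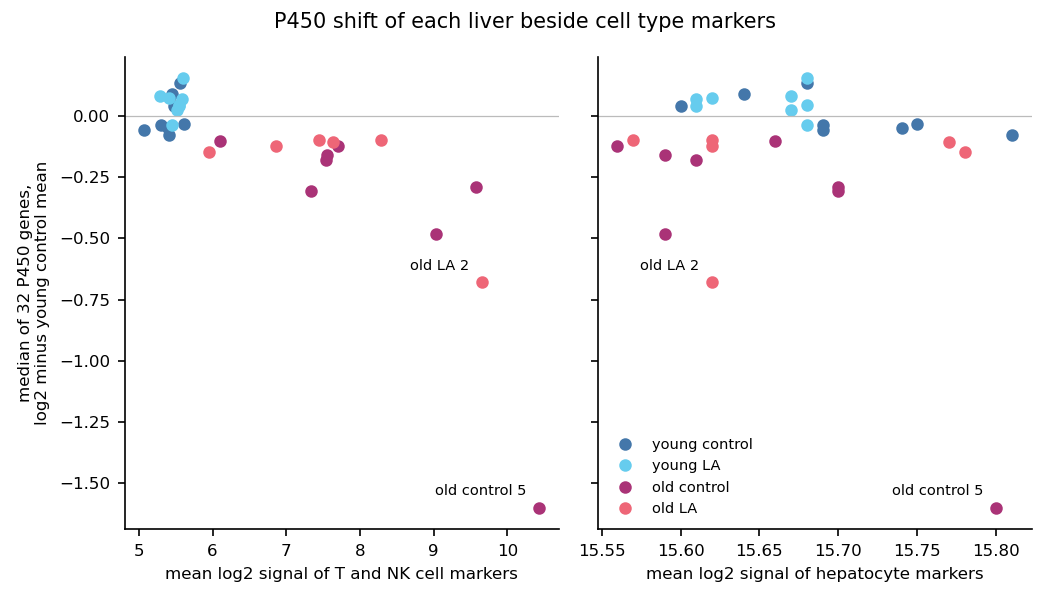
Median of the 32 tested P450 genes in each animal, as log2 difference from the young control mean (vertical axis), against the mean log2 signal of 12 T and NK cell markers (left) and of 10 hepatocyte markers (right). Old control 5 lies at -1.60 and old LA 2 at -0.68; both are at the high end of the T and NK cell axis. The hepatocyte markers are bright probe sets whose axis spans only 15.6 to 15.8 over all animals.

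Signal was absent or near background for 11 of the 43 genes, whose mean was under log2 4 in all 4 groups and which were not tested. They were Cyp2a3, Cyp2b12, Cyp2b21 and Cyp2g1 of family 2, Cyp4f5 of family 4, the oxysterol hydroxylase gene Cyp7b1, and the genes of steroid and vitamin D hormone synthesis Cyp11a1, Cyp11b1, Cyp19a1 (aromatase), Cyp21a1 and Cyp27b1. Of these, 9 passed 4 on no array. Cyp4f5 reached 7.33 in old LA 2 and 5.91 in old control 5, against a highest value of 4.42 in the other old controls, and Cyp7b1 reached 5.69 in old control 5. That left 3 of 3 genes of family 1, 14 of 18 of family 2, 9 of 10 of family 4 and 6 of 12 of the rest. A gene needed a log2 signal over 4 on at least 6 arrays to be tested, so these 32 are the genes with signal, not the whole set.

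Under the control diet, old rats differed from young rats in 15 of the 32 P450 genes (adjusted p under 0.05, limma with Benjamini-Hochberg adjustment over 10869 genes): 4 were higher and 11 lower. Over all genes tested 36.0% passed, 20.3% higher and 15.7% lower. The median difference of the 32 genes was -0.37 log2, against 0.02 over all genes. Of the 32, 22 were below 0, against 5212 of all 10869 genes. Without old control 5 the median was -0.17 and 16 genes passed, 4 higher and 12 lower, against 33.6% of all genes. In bulk liver RNA, fewer cells of a type and less RNA per cell cannot be told apart. Centring each array on its median turned the split over all genes to 16.3% higher and 22.2% lower and moved the median of all genes from 0.02 to -0.07, with 3 P450 genes higher and 13 lower.

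By family, the counts were as follows; differences between families were not tested. In family 2, 7 of 14 genes were lower and 1 higher, with a median difference of -0.67 (-0.33 without old control 5). Family 4 had 3 of 9 lower and 2 higher, with a median of -0.29 (-0.15 without that array). Family 1 had 1 of 3 lower, and the rest had 1 of 6 higher, with medians of 0.20 and -0.02. Without old control 5 these medians were 0.06 and 0.02, and the rest had 1 higher and 1 lower. For 9 genes every old control lay below every young control, against 4.19% of all genes tested: Cyp2a2, Cyp2d2, Cyp2d3, Cyp2d4, Cyp2j4, Cyp2u1, Cyp4f1, Cyp4f4 and Cyp4f6. No P450 gene had all old controls above all young controls, as 4.64% of all genes did; leaving out old control 5, Cyp2a1, Cyp4a8 and Cyp26a1 did, where 5.74% of all genes were separated upward.

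**Figure D3:**
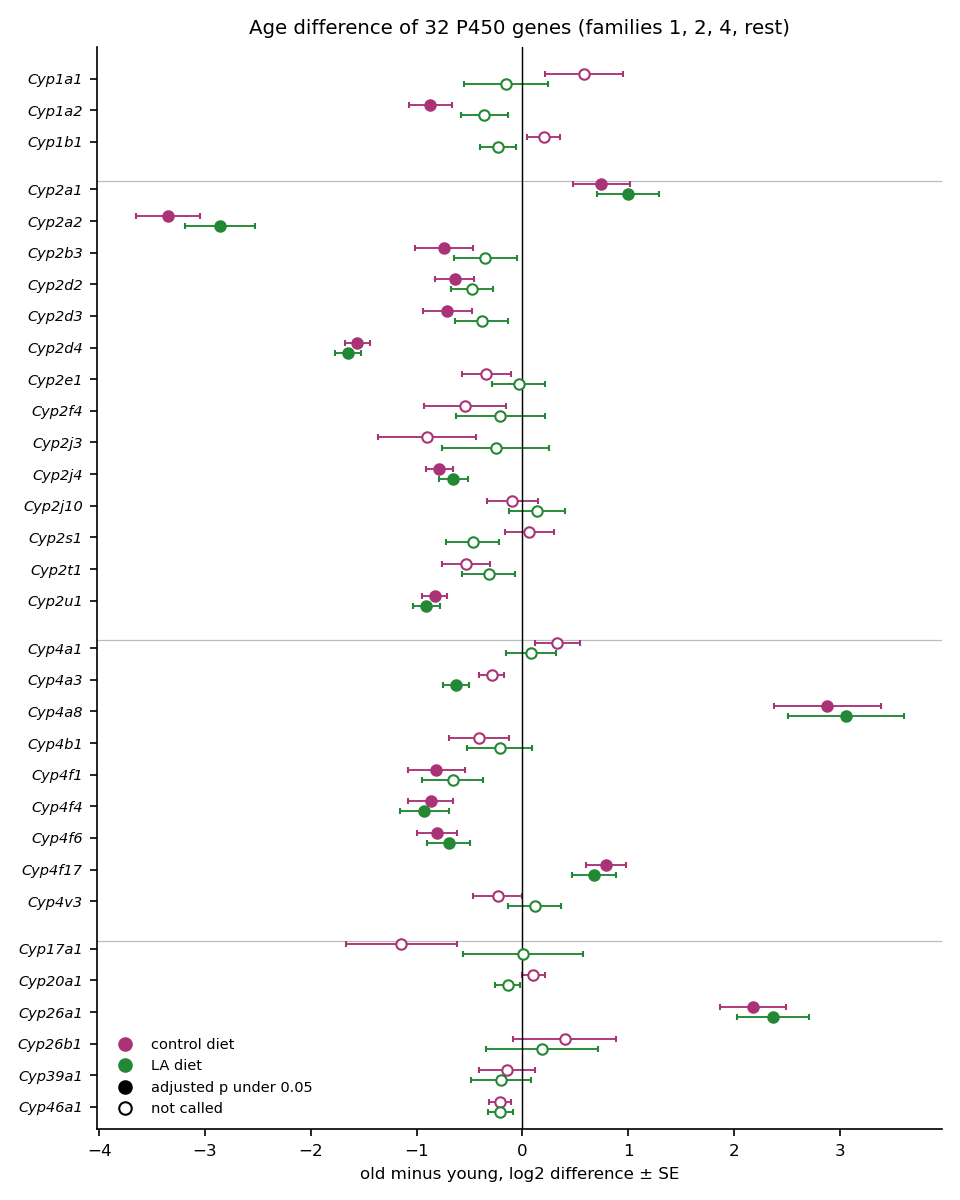
Age difference (old minus young, log2, horizontal axis, bars ± SE) of the 32 tested P450 genes under the control diet and the LA diet; lines part families 1, 2, 4 and the rest, and filled points have an adjusted p under 0.05. Cyp2a2 lies farthest left, at -3.35 and -2.86, and Cyp4a8 and Cyp26a1 farthest right, at differences between 2.18 and 3.06.

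Cyp2a2 showed the largest fall with age of the 32 genes under both diets. It encodes a steroid hydroxylase that is expressed mainly in the liver of adult male rats. Young controls ranged from 13.92 to 14.31 with a median of 14.05, and young LA animals from 13.99 to 14.23 with a median of 14.14. Old controls ranged from 9.16 to 11.77 with a median of 11.02, and old LA animals from 9.79 to 12.31 with a median of 11.51. Every old animal lay below every young animal, and old animals were also far more spread out, with an SD of 0.92 in old controls (n = 8) against 0.12 in young controls (n = 8). The fall with age was 3.35 ± 0.31 (SE) log2 under the control diet (10.2-fold, adjusted p = 2.6e-09) and 2.86 ± 0.33 under the LA diet (7.27-fold, adjusted p = 2.3e-07). Among old controls the lowest value was that of old control 5, and without it the fall was 3.12 ± 0.28. Old LA 2 had the highest value of its group, 12.31.

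The neighbouring gene moved the other way. Cyp2a1, a testosterone hydroxylase gene that lies next to Cyp2a2 in the rat genome and is expressed more in females than in males, ranged from 12.23 to 12.73 in young controls and from 13.28 to 13.85 in 7 of the 8 old controls. The remaining animal, old control 5, was at 10.86. With old control 5 included, the rise of Cyp2a1, 0.75 ± 0.27 log2 (adjusted p = 0.0316), passed by a small margin. Leaving out young control 2 or 5, or old control 1, 2, 3, 4 or 7, took the adjusted p past 0.05. Leaving out old control 5 instead gave 1.09 ± 0.13 (adjusted p = 4.92e-07). Under the LA diet the rise was 1.0 ± 0.29 (adjusted p = 0.015), with old LA 2 again the lowest of its group at 12.63. Probe sets of such closely related genes can share target sequence, so the separation of Cyp2a1 from Cyp2a2 is that of the array's design.

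All 3 measured Cyp2d genes were lower in old controls. They encode enzymes for basic drugs and amines; Cyp2d4 is the member also known from brain. Cyp2d4 ranged from 9.37 to 9.67 (median 9.49) in young controls, 9.66 to 10.37 (median 10.01) in young LA animals, 7.56 to 8.27 (median 7.95) in old controls and 7.77 to 8.71 (median 8.41) in old LA animals. Young and old animals did not overlap. The age difference was -1.56 ± 0.12 (adjusted p = 3.44e-11) under the control diet and -1.65 ± 0.13 (adjusted p = 6.45e-11) under LA, and old control 5, at 7.95, sat at the centre of its group. A second Cyp2d4 probe set gave -1.72 ± 0.14 and -1.77 ± 0.15. Cyp2d2 and Cyp2d3, which lie side by side in the genome, had old control values of 14.24 to 14.59 and 14.23 to 14.67 apart from old control 5, just under the young control ranges of 14.66 to 14.95 and 14.76 to 14.97. Their differences were -0.64 ± 0.19 (adjusted p = 0.00929) and -0.71 ± 0.23 (adjusted p = 0.0181), and without that array -0.40 ± 0.09 and -0.41 ± 0.10.

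Cyp2j4 and Cyp2u1 were also lower in old controls. Cyp2j4, an arachidonic acid epoxygenase gene, ranged from 10.92 to 11.38 (median 11.19) in young controls and from 9.73 to 10.91 (median 10.37) in old controls, a difference of -0.78 ± 0.13 (adjusted p = 4.47e-05). Its highest old control stood just below its lowest young control. Cyp2u1, a long-chain fatty acid hydroxylase gene, ranged from 8.39 to 8.78 (median 8.68) in young and from 7.15 to 7.98 (median 7.92) in old controls, a difference of -0.83 ± 0.12 (adjusted p = 6.03e-06). No old control overlapped a young one for either gene, and without old control 5 the differences of Cyp2j4 and Cyp2u1 were -0.69 ± 0.12 and -0.73 ± 0.10. For Cyp2j3, the neighbour of Cyp2j4, 7 old controls lay between 11.45 and 12.13 and old control 5 at 6.71. Its difference of -0.90 ± 0.46 (adjusted p = 0.127) did not pass, and without that array it was -0.26 ± 0.13 (adjusted p = 0.121).

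Cyp2b3, a constitutively expressed Cyp2b gene, was lower by the test at -0.74 ± 0.27 (adjusted p = 0.0354) with old controls at 14.11 to 14.76 apart from old control 5 at 11.52. Leaving out young control 1, 2 or 3 took this call past the threshold, and leaving out old control 5 reduced the difference to -0.38 ± 0.10 (adjusted p = 0.00668). Cyp2e1, the ethanol-oxidising enzyme and one of the brightest P450 probe sets, had overlapping ranges of 15.32 to 15.81 in young and 15.48 to 15.77 in 7 old controls, with old control 5 at 13.12, and its difference of -0.34 ± 0.23 (adjusted p = 0.255) did not pass. Cyp2f4, Cyp2j10, Cyp2s1 and Cyp2t1 did not pass either, with differences from -0.54 to 0.06. Cyp2t1 at -0.53 ± 0.23 had an adjusted p of 0.0681, and it passed without old control 2 or without old control 8.

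**Figure D4:**
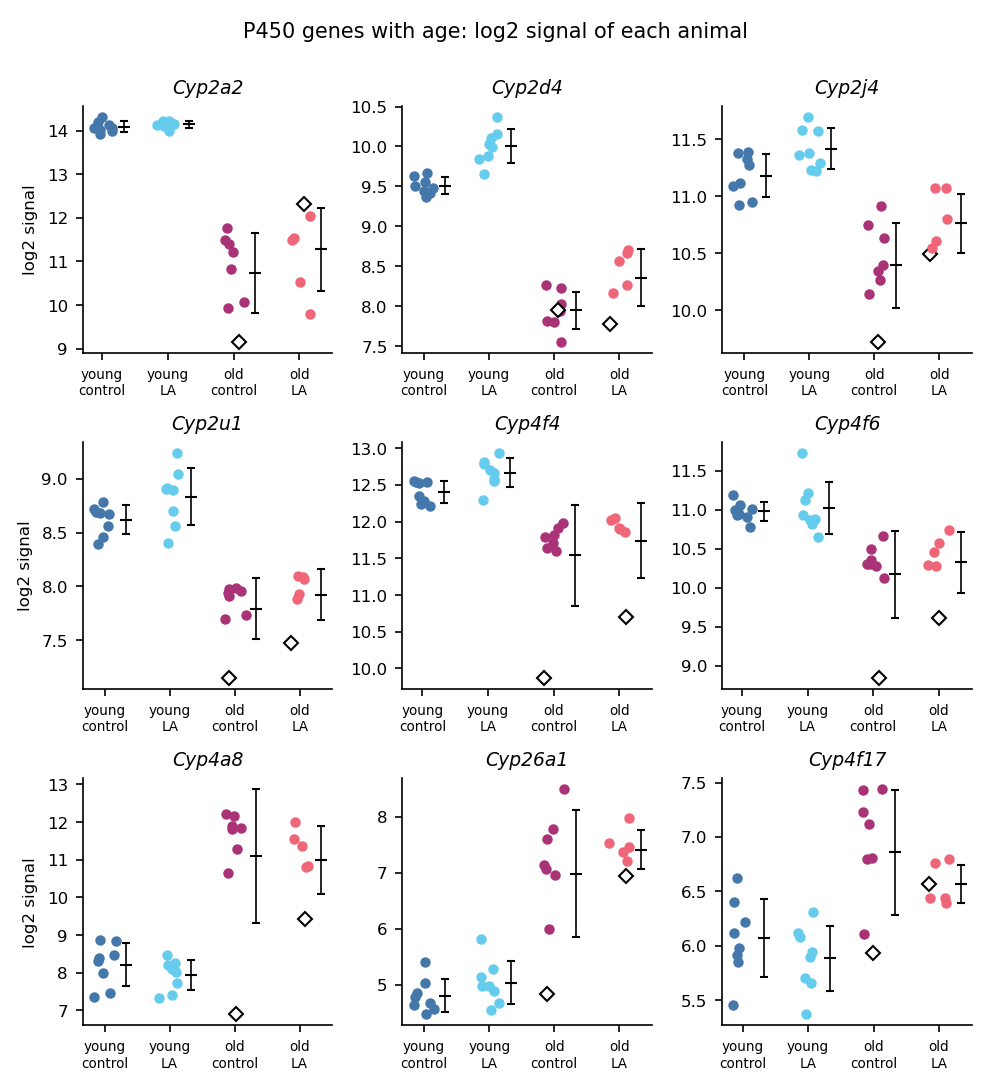
Log2 signal of each animal for 9 P450 genes that differed between ages, by group; black marks are the mean and SD of all animals of a group, and open diamonds are old control 5 and old LA 2. Each panel has its own vertical scale. The first 6 genes are lower in old animals, the last 3 higher, and the diamond of old control 5 falls among or below the young animals for Cyp4a8 and Cyp26a1.

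In family 4, Cyp4a8 and Cyp4f17 rose and 3 Cyp4f genes fell. Cyp4a8, a gene of the Cyp4a subfamily whose enzymes hydroxylate the ends of fatty acids, ranged from 7.35 to 8.88 (median 8.35) in young controls and from 7.34 to 8.46 (median 8.06) in young LA animals. Old controls other than number 5 ranged from 10.66 to 12.20, old control 5 was at 6.90, and old LA animals ranged from 9.43 to 12.01 (median 11.10). Old LA animals lay wholly above the young, whereas a single old control fell below the lowest young control. The rise was 2.88 ± 0.51 (7.38-fold, adjusted p = 0.0001) under the control diet, 3.48 ± 0.30 without old control 5, and 3.06 ± 0.55 (8.32-fold, adjusted p = 0.000171) under LA. A second probe set gave 3.17 ± 0.56 and 3.10 ± 0.60.

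The other measured genes of the Cyp4a subfamily were not called higher. Cyp4a1, a well-known target of the fatty acid receptor PPARα, had overlapping ranges of 12.76 to 14.28 in young and 13.02 to 14.32 in old controls, and its difference of 0.33 ± 0.21 (adjusted p = 0.225) did not pass. Cyp4a3 ranged from 13.92 to 14.88 in young and from 13.78 to 14.40 in old controls. Its difference was -0.29 ± 0.12 with an adjusted p of 0.0500211, just past the threshold; it was called lower without any 1 of young controls 1, 2, 5 and 6, old controls 1 and 3 or old LA 2.

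The Cyp4f genes, whose enzymes hydroxylate leukotriene B4 and other eicosanoids, split by gene. Cyp4f4 ranged from 12.21 to 12.55 (median 12.44) in young and from 9.87 to 11.98 (median 11.75) in old controls, Cyp4f6 from 10.78 to 11.19 (median 10.97) and from 8.85 to 10.66 (median 10.31), and Cyp4f1 from 14.21 to 14.46 (median 14.28) and from 11.15 to 13.97 (median 13.79). The ages did not overlap for any of these, and old control 5 gave the lowest value each time. The differences were -0.87 ± 0.21 for Cyp4f4 (adjusted p = 0.00264), -0.81 ± 0.19 for Cyp4f6 (adjusted p = 0.00157) and -0.81 ± 0.27 for Cyp4f1 (adjusted p = 0.02). Without old control 5 they were -0.63 ± 0.14, -0.62 ± 0.14 and -0.48 ± 0.14. Cyp4f17 went the other way, from 5.46 to 6.63 (median 6.05) in young controls to 5.94 to 7.44 (median 6.96) in old controls, with overlapping ranges and a rise of 0.79 ± 0.19 (adjusted p = 0.00216). Cyp4b1 at -0.41 ± 0.29 (adjusted p = 0.261) and Cyp4v3 at -0.23 ± 0.23 (adjusted p = 0.439) did not pass.

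Of family 1, the aryl hydrocarbon receptor's classic targets, Cyp1a2 was lower in old controls. This enzyme oxidises caffeine and aromatic amines. It ranged from 12.33 to 13.02 (median 12.61) in young and from 10.82 to 12.83 (median 11.80) in old controls, so that the ranges overlapped, and the difference was -0.87 ± 0.21 (adjusted p = 0.00191). Cyp1a1 was near background in most animals, with medians of 3.54 in young and 4.16 in old controls; single values reached 5.32 in a young control and 7.03 in old control 5, and the difference of 0.58 ± 0.37 (adjusted p = 0.212) did not pass. Cyp1b1 at 0.20 ± 0.16 (adjusted p = 0.327) did not pass.

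Among the remaining families Cyp26a1 rose. CYP26 enzymes clear retinoic acid, and Cyp26a1 is itself induced by retinoic acid. Young controls ranged from 4.48 to 5.40 (median 4.73), young LA animals from 4.56 to 5.81 (median 4.98), old controls from 4.83 to 8.49 (median 7.10) and old LA animals from 6.94 to 7.98 (median 7.41). All old animals but old control 5, at 4.83, lay above all young animals. The rise was 2.18 ± 0.32 (4.53-fold, adjusted p = 7.32e-06) under the control diet, 2.49 ± 0.24 without old control 5, and 2.38 ± 0.34 (5.19-fold, adjusted p = 7.84e-06) under LA. The second retinoic acid hydroxylase gene, Cyp26b1, varied widely within every group, from 3.24 to 7.56 in old controls, and its difference of 0.40 ± 0.49 (adjusted p = 0.534) did not pass.

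Cyp17a1, the steroid 17-hydroxylase gene, depended on old control 5. Young controls ranged from 8.23 to 10.21 and 7 old controls from 6.84 to 8.89, while old control 5 was at 11.89. The difference was -1.14 ± 0.52 (adjusted p = 0.0866) with that array and -1.64 ± 0.41 (adjusted p = 0.003) without it. Cyp20a1, an orphan P450, the oxysterol hydroxylase gene Cyp39a1 and the cholesterol 24-hydroxylase gene Cyp46a1 had differences of 0.10 ± 0.11, -0.14 ± 0.26 and -0.21 ± 0.11, none past the threshold.

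Promoter windows were searched for response elements of the receptors and factors known to act on P450 genes. RefSeq promoter windows on the GRCr8 rat assembly, 300 bases around the annotated start, were matched for 33 of the 43 genes, and both strands were searched. One exact spelling of the retinoic acid response element, a direct repeat of the same 6 letters with any 5 bases between, was found in Cyp26a1 alone among the 33, and in 3 of 33469 promoters of all genes. Other spellings of its repeats, which also bind the receptor, were not searched, and this one was chosen with the Cyp26a1 values known, so its rarity reflects that choice. The E-box CACGTG of clock factors was found in Cyp2j4 alone, against 6.42% of all promoters. The dioxin response core GCGTG was present in 11 of 33 (33.3%), Cyp26a1 included, against 29.7% of all promoters, and its longer form TTGCGTG in none, against 1.17%. The PAR bZIP elements TTATGTAA and TTACGTAA were found in Cyp2g1 and in none, against 0.893% and 0.12% of all promoters, and the direct repeat with a 1-base spacer to which PPARα binds was found in none of the 33, against 0.0538%. These exact letters are strict descriptions of a 300-base window, and a match is no proof of a bound site. The 250 bases before the start are given 5′ to 3′ on the gene's strand for Cyp26a1 (chr1:244883572-244883821, plus strand; capitals mark the retinoic acid element, read on the other strand, at -92 to -76), for Cyp2j4 (chr5:116323043-116323292, minus strand; capitals mark the E-box at -210 to -205) and for Cyp4a8 (chr5:133970227-133970476, minus strand), the gene with the largest rise, which held none of the motifs searched.
Cyp26a1: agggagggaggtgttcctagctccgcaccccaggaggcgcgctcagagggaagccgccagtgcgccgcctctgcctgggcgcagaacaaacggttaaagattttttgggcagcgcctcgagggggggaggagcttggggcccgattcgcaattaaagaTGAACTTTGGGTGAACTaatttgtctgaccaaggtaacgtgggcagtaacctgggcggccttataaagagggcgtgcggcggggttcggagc
Cyp2j4: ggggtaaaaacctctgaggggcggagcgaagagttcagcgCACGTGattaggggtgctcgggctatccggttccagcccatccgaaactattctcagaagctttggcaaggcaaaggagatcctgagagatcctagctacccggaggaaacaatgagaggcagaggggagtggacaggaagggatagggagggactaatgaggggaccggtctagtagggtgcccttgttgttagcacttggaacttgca
Cyp4a8: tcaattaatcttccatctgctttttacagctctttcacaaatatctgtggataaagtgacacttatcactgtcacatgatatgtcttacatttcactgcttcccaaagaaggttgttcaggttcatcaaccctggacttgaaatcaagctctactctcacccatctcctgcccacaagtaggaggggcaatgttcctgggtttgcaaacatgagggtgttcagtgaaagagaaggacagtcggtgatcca

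With the LA diet in both age groups, 11 of 32 P450 genes differed between ages, 4 higher and 7 lower, against 21.1% of all genes tested (12.8% higher and 8.25% lower). The animals of this comparison are all different from those fed the control diet. Of the 15 genes called under the control diet, all had the same sign under LA and 10 were called again, which is 66.7% of the first list and 90.9% of the second. The matching shares over all genes were not worked out, so this agreement cannot be called particular to P450 genes. Those 10 were Cyp2a1, Cyp2a2, Cyp2d4, Cyp2j4, Cyp2u1, Cyp4a8, Cyp4f4, Cyp4f6, Cyp4f17 and Cyp26a1. Across the 32 genes the 2 sets of age differences had r = 0.94, as a description over genes that are not independent of each other. The median of the 32 was -0.22, against 0.03 over all genes. Without old LA 2 it was -0.15, with 4 genes higher and 6 lower, against 15.4% of all genes called. Medians of families 1, 2, 4 and the rest were -0.23, -0.37, -0.21 and -0.06. Without old LA 2 they were -0.147, -0.235, 0.053 and -0.086, so that of family 4 changed sign.

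Cyp4a3 was the gene called under LA and not under the control diet. Young LA animals ranged from 14.70 to 15.06 (median 14.97) and old LA animals from 14.11 to 14.59 (median 14.27), with no overlap, and the difference was -0.63 ± 0.12 (adjusted p = 0.000583). The test of whether its age difference depended on diet gave -0.34 ± 0.17 (adjusted p = 0.813). Cyp1a2, Cyp2b3, Cyp2d2, Cyp2d3 and Cyp4f1 were called under the control diet only, with LA-diet differences of -0.36 ± 0.22, -0.35 ± 0.30, -0.48 ± 0.20, -0.39 ± 0.25 and -0.66 ± 0.29. Leaving out old control 5, which lowers the shared estimate of spread, brought the last 4 past the threshold under LA with unchanged differences, 15 genes in all, against 29.7% of all genes. Leaving out old LA 2 ended the call of Cyp4f6, from -0.70 ± 0.20 (adjusted p = 0.0137) to -0.55 ± 0.20 (adjusted p = 0.0569).

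For 9 genes all old LA animals lay below all young LA animals (3.76% of all genes): Cyp2a2, Cyp2d2, Cyp2d3, Cyp2d4, Cyp2j4, Cyp2u1, Cyp4a3, Cyp4f1 and Cyp4f4. For 3 genes, Cyp4a8, Cyp4f17 and Cyp26a1, all old lay above all young (6.32% of all genes).

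In young rats, the main fit called 2 of 32 P450 genes higher with LA and none lower, which is 6.25% of them against 6.23% of all genes tested. These calls use a spread shared by all 4 groups, old animals included. A fit of only the 2 young groups called 1718 of 10869 genes, against 677 in the main fit, and more P450 genes, as given below. Cyp2d4 was higher by 0.50 ± 0.12 (1.41-fold, adjusted p = 0.00755), from a median of 9.49 in controls to 10.01 with LA; the highest control, 9.67, passed the lowest LA animal, 9.66. Its second probe set gave 0.67 ± 0.14 (adjusted p = 0.00271). Cyp4a3 was higher by 0.49 ± 0.12 (1.40-fold, adjusted p = 0.00845), from 13.92 to 14.88 (median 14.42) in controls to 14.70 to 15.06 (median 14.97) with LA, so that the ranges overlapped only at their ends. Both calls held with each of the 30 animals left out in turn. The fit of only the 2 young groups also called Cyp2j3, lower with LA (adjusted p = 0.011). Young controls were at 12.015 to 12.284 for Cyp2j3 and young LA animals at 11.472 to 12.056. In the main fit its difference was -0.32 ± 0.46 (adjusted p = 0.848), with a spread that takes in old control 5 at 6.71.

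Other genes of family 4 and the rest came near. Cyp4a1 was at 0.61 ± 0.21 (adjusted p = 0.0979), with young controls from 12.76 to 14.28 and LA animals from 13.37 to 14.47, and it passed only without young control 3 among the fits that left out 1 animal. Cyp20a1 was at 0.34 ± 0.11 (adjusted p = 0.0606), with controls at 9.37 to 9.76 and LA animals at 9.65 to 10.09; it passed without young LA 1, old control 5 or old LA 2, with an adjusted p of 0.0101 without old control 5. The genes that differed most with age did not pass with LA in young rats: Cyp2a2 was at 0.06 ± 0.31, Cyp4a8 at -0.27 ± 0.51 and Cyp26a1 at 0.24 ± 0.32. For Cyp2a2 the SD was 0.12 in young controls and 0.08 in young LA animals. It was 0.92 in old controls and 0.95 in old LA animals, so the shared spread behind this SE is mostly that of old animals. The median over the 32 genes was 0.05, against 0.00 over all genes.

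In old rats limma called no P450 gene with LA, where 0.920% of all genes were called. At an unadjusted p under 0.05 there were 3 higher and 1 lower of 32, against 779 higher and 580 lower of all 10869 genes tested. Cyp2d4 was at 0.41 ± 0.13 (adjusted p = 0.117), with old controls at 7.56 to 8.27 and old LA animals at 7.77 to 8.71. Its second probe set passed among all probe sets, at 0.62 ± 0.15 (adjusted p = 0.0457), and without old LA 2 the gene passed at 0.52 ± 0.12 (adjusted p = 0.0198). Cyp2j4 was at 0.37 ± 0.14 (adjusted p = 0.22), Cyp1a2 at 0.47 ± 0.22 (adjusted p = 0.377) and Cyp1a1 at -1.07 ± 0.40 (adjusted p = 0.212), the last with all 6 old LA animals under log2 4, between 3.34 and 3.5, and old control 5 at 7.03. Since signals under 4 are near background, the size of the Cyp1a1 difference has little meaning; without old control 5 it was -0.71 ± 0.30.

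Old control 5 moved many of these differences. Of the 32 differences 26 were above 0, with a median of 0.23, against 5503 of all 10869 genes and a median of 0.003. Without old control 5, 19 of the 32 were above 0 with a median of 0.03. Without old LA 2, 26 were above 0 with a median of 0.37, and without both arrays 26 with a median of 0.11. For Cyp2j3 the difference was 0.33 ± 0.50, where old control 5 was at 6.71 and the other old controls averaged 11.82 against 11.51 in old LA animals. Cyp39a1 was called lower, -0.52 ± 0.15 (adjusted p = 0.0469), only without old control 5. Whether the LA difference depended on age was tested for each gene, and limma called none of the 32 (0.0276% of all genes). At an unadjusted p under 0.05 there were 0 of the 32, against 694 of all 10869 genes tested. Cyp17a1 had the largest such estimate, 1.15 ± 0.77 (adjusted p = 0.878), with LA differences of -0.47 ± 0.52 in young and 0.68 ± 0.57 in old rats. Without old control 5, Cyp17a1 was at 1.18 ± 0.44 (adjusted p = 0.149) in old rats, and the estimate of the dependence was 1.65 ± 0.59 (adjusted p = 0.429).

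**Figure D5:**
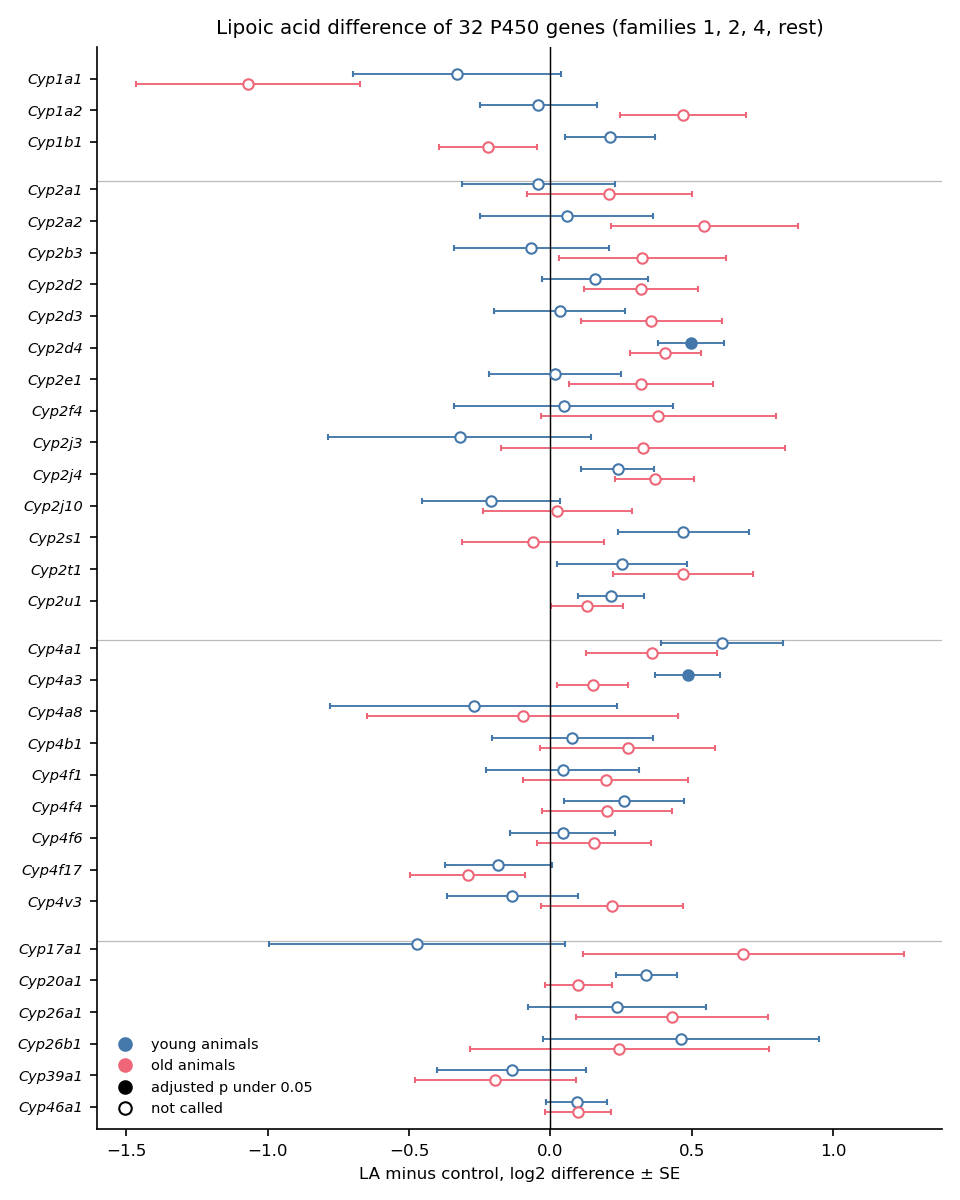
LA difference (LA minus control, log2, horizontal axis, bars ± SE) of the 32 tested P450 genes in young and in old rats; lines part families 1, 2, 4 and the rest, and filled points have an adjusted p under 0.05. Only Cyp2d4 and Cyp4a3 in young rats are filled, at 0.50 and 0.49.

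Counts of other gene lists are read against the share of all genes called: with age under the control diet 36.0%, made up of 20.3% higher and 15.7% lower, and with LA in young rats 6.23%, made up of 3.11% higher and 3.12% lower. Of 5 electron donor genes, 2 were called with age. Por, oxidoreductase that supplies the microsomal enzymes, was lower in old controls at -0.85 ± 0.24 (adjusted p = 0.00674), and the mitochondrial donor gene Fdx1 was higher at 0.53 ± 0.20 (adjusted p = 0.0368), the latter not with arrays centred on their median. The list's median was -0.14, and -0.04 without old control 5. The values of Por and Fdx1 include that array, where the list's mean was 11.6 against an old control median of 12.7. Por was lower with LA in young rats too, at -0.91 ± 0.24 (adjusted p = 0.0162), while Cyp2d4 and Cyp4a3 were higher in the same animals. Of 11 genes of haem synthesis and breakdown, 5 were lower and 1 higher with age, with a median of -0.34 (-0.23 without old control 5). Urod and Fech, enzymes of haem synthesis, were at -0.48 ± 0.08 and -0.73 ± 0.18, and Hmox1, which breaks haem down, was at 2.23 ± 0.44. Fech was the member called with LA in young rats, at 0.73 ± 0.18 (adjusted p = 0.0103).

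Receptors and factors that control P450 genes were lower in 7 of 21 cases with age under the control diet and higher in none, with a median of -0.31; without old control 5, 6 were lower and the median was -0.15. Over all genes 20.3% were higher and 15.7% lower. The xenobiotic receptors Nr1i2 (PXR) and Nr1i3 (CAR) were at -0.60 ± 0.14 and -1.13 ± 0.28, their partner Rxra at -0.69 ± 0.18 and Ppara at -1.14 ± 0.35. These gene values include old control 5, where the list's mean was 8.57 against an old control median of 9.72. With LA in young rats 1 of the 21 was higher, Nr1i3 at 0.99 ± 0.28, and 2 were lower, Nr3c1 (the glucocorticoid receptor) at -0.49 ± 0.12 and Ppargc1a at -0.80 ± 0.23; without old control 5, 5 were lower. Of 6 genes of the aryl hydrocarbon receptor pathway, 3 were higher with age and 1 lower, against 20.3% and 15.7% of all genes: Nqo1, which is also a target of Nfe2l2, was at 2.64 ± 0.25, Nfe2l2 at 1.01 ± 0.14, Cdkn1b at 0.34 ± 0.10 and Arnt at -0.50 ± 0.15.

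PPARα targets outside the P450 genes gave 4 higher and 2 lower of 20 with age, a smaller share than the 36.0% of all genes, with a median of -0.08 (-0.04 without old control 5). With LA in young rats 6 were higher and none lower, against 6.23% of all genes, with a median of 0.29. Cpt1b (carnitine palmitoyltransferase) was at 2.85 ± 0.26, the peroxisome gene Pex11a at 1.74 ± 0.28, and the thioesterase genes Acot1 and Acot2 at 2.80 ± 0.64 and 0.97 ± 0.22, beside 0.49 ± 0.12 for Cyp4a3 and the uncalled 0.61 ± 0.21 for Cyp4a1. None of the 20 was called with LA in old rats, and Cpt1b was the one gene of the list whose LA difference depended on age, by -2.51 ± 0.39 (adjusted p = 0.00231). Of 15 clock and PAR bZIP factor genes, 3 were higher and 8 lower with LA in young rats, against 3.11% and 3.12% of all genes, with a median of -1.34. Dbp, a PAR bZIP factor known to act on P450 genes, was at -5.49 ± 0.60, and the clock factor gene Bmal1 was at 4.46 ± 0.45. In old rats 2 of the 15 were higher and 5 lower with LA, Dbp at -3.04 ± 0.65 and Bmal1 at 2.24 ± 0.48, where no P450 gene was called.

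Genes around growth hormone signalling, which is known to control sex-dependent P450 genes, gave 3 higher and 2 lower of 13 with age, where 36.0% of all genes were called, with a median of -0.31. Without old control 5, 3 were higher and 3 lower, with a median of -0.19. Cux2, a factor expressed mainly in female rat and mouse liver, was higher by 3.61 ± 0.40 (adjusted p = 1.15e-07), the prolactin receptor gene Prlr was at 4.92 ± 0.40, Jak2 was at 0.64 ± 0.17 and Igf1 was at -0.31 ± 0.07. These stood beside a fall of 3.35 ± 0.31 for Cyp2a2 and a rise of 0.75 ± 0.27 for Cyp2a1 in the same animals. Of 12 retinoid handling genes, 2 were higher and 4 lower with age, and 3 higher and 2 lower without old control 5, where 36.0% and 33.6% of all genes were called. Rdh16, a retinol dehydrogenase gene, was at -4.71 ± 0.70 (adjusted p = 9.96e-06) and the receptor gene Rarg at 0.73 ± 0.23, beside the rise of 2.18 ± 0.32 in Cyp26a1.

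Partners in later steps of metabolism were split. Conjugation enzymes had 3 higher and 8 lower of 20 with age, against 20.3% and 15.7% of all genes, with a median of -0.19. Without old control 5 they had 4 higher and 8 lower, with a median of -0.14. Gsta3 was at 5.57 ± 0.36 and the sulfotransferase gene Sult1c2 at -0.97 ± 0.18. With LA in young rats 4 were higher (6 without old control 5), Sult1b1 among them at 0.71 ± 0.12. Epoxide hydrolases and arachidonate partners had 3 of 5 higher with age, including Ephx1 at 0.91 ± 0.17, and Ephx2, which opens the epoxides that CYP2J enzymes make, was higher with LA in young rats at 0.98 ± 0.20 (adjusted p = 0.00232). Of 11 genes of pericentral hepatocytes, the zone where most drug-metabolising P450 enzymes are found, 5 were lower and none higher with age, with Gulo at -0.98 ± 0.14 and Rgn at -1.41 ± 0.33. Of 15 periportal genes 5 were lower and 1 higher. Medians were -0.36 for pericentral and -0.29 for periportal genes, and -0.21 and -0.26 without old control 5, in the opposite order. With arrays centred, 8 periportal genes were lower.

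Markers of other cells were called higher in old controls, where 20.3% of all genes were higher and 15.7% lower. The counts were 7 of 10 for Kupffer cells and macrophages, 9 of 12 for T and NK cells, 5 of 11 for stellate cells (3 without old control 5) and 5 of 5 for bile duct and progenitor cells. Endothelium had 1 of 6 higher, near the share of all genes. None of these markers was lower. With age under the LA diet, where 12.8% of all genes were higher, the same lists had 8 of 10, 9 of 12, 0 of 11, 3 of 5 and 0 of 6 higher. Between LA and control animals, the calls among these markers were Cd14 of the macrophage list, higher in young rats, and Apoa1 of the hepatocyte list, lower in young rats. Of 2 markers of steroidogenic cells, Fdx1 was the one higher. Of 10 hepatocyte markers, bright probe sets, 3 were higher and 3 lower with a median of -0.04, and none higher and 4 lower with arrays centred on their median, with a median of -0.12. The part of a change in cell makeup in the P450 differences was not tested.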

How the data were processed

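Liver RNA of 30 male Fischer 344 rats was measured on 1 array each. The authors deposited log2 values per probe set, made with GCRMA per the submitters' processing notes, which corrects background from probe sequence and normalizes between arrays; its version was not given in the sources used here. Groups came from the sample titles. Of 31099 probe sets, 20826 listed 1 gene; the probe set with the highest mean of each gene was kept, and 10869 genes with a log2 signal over 4 on at least 6 arrays were tested. The number of arrays limits the precision.

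limma 3.58.1 in R 4.3.3 fitted all 4 groups together, with Benjamini-Hochberg adjustment over all genes of a contrast and a threshold of 0.05. Fold changes are from log2 differences. On simulated data with 200 changed genes of 10869, 91% of 1-log2 and 98% of 2-log2 changes were recovered for the control-diet age contrast. Recovery under unequal spread, as for Cyp2a2 with an SD of 0.12 in young and 0.92 in old controls, was not tested. Recovery with an array far from its group, such as old control 5, was not tested either. The labels name separate animals.

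Named genes are, in each contrast, the called P450 genes with the 10 largest differences either way, a fixed list of well-studied P450 genes, and, from each other gene list, at most 4 genes ranked by p. The genes and the 19 lists were chosen with earlier results of these data known. Counts for the lists are adjusted over all genes. Alternatives changed the filter, normalization, probe set summary, variance model, array weights, samples fitted, a replicate block and each animal left out. Promoters came from a RefSeq table of 33469 windows on GRCr8. Python 3.11.15 and matplotlib 3.10.9 were used for tables and plots.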

Additional observations from a re-analysis of the deposited data

Results flagged for a closer look

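A single animal stood far from the others of its group for 33 of 128 pairs of a tested P450 gene and a group, by the gap to its nearest neighbour relative to the group's range; chance flags about 1 in 20 groups. Old control 5 accounted for 18 and old LA 2 for 8. No explanation was tested.

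Old control 5 was the lowest old control, in log2 signal with the next lowest in brackets, for Cyp2a1 at 10.9 (13.3), Cyp2b3 at 11.5 (14.1), Cyp2d2 at 12.5 (14.2), Cyp2d3 at 12.0 (14.2), Cyp2e1 at 13.1 (15.5), Cyp2f4 at 6.62 (9.92), Cyp2j3 at 6.71 (11.4), Cyp2t1 at 6.86 (8.49) and Cyp2u1 at 7.15 (7.70). In family 4 it was lowest for Cyp4a8 at 6.90 (10.7), Cyp4b1 at 5.61 (7.4), Cyp4f1 at 11.1 (13.8), Cyp4f4 at 9.87 (11.6), Cyp4f6 at 8.85 (10.1) and Cyp4v3 at 2.69 (4.25), and among the rest for Cyp39a1 at 6.51 (8.62). It was the highest old control for Cyp17a1 at 11.9 (8.89) and Cyp20a1 at 10.3 (9.76).

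Old LA 2 was the lowest old LA animal for Cyp2d2 at 13.8 (14.5), Cyp2d3 at 13.8 (14.6), Cyp2f4 at 8.66 (10.3), Cyp2u1 at 7.48 (7.88), Cyp4b1 at 5.97 (7.86), Cyp4f1 at 12.5 (13.7), Cyp4f4 at 10.7 (11.9) and Cyp39a1 at 7.77 (8.61). Each of these 8 genes was also one for which old control 5 stood apart below its own group. Old LA 7 was lowest for Cyp4a1 at 13.5 (14.2) and highest for Cyp4v3 at 5.30 (4.67).

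In young animals 5 values stood apart, each in a different animal. Young LA 5 was highest for Cyp1a1 at 4.29 (3.53) and young LA 4 for Cyp1b1 at 5.10 (4.51). Young LA 1 was lowest for Cyp2j10 at 4.54 (5.30), young LA 7 for Cyp4v3 at 3.75 (4.64) and young control 5 for Cyp2e1 at 15.3 (15.6).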

How the results depend on the processing

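The 15 P450 genes called with age under the control diet numbered 11 to 17 over the planned settings, and the 11 under the LA diet 10 to 15. Leaving out each animal in turn gave 14 to 16 genes with age under the control diet, 10 to 15 under the LA diet, 2 to 3 with LA in young rats, 0 to 1 with LA in old rats and 0 to 0 for the dependence of the LA difference on age. The 2 genes called with LA in young rats became 5 with array weights, 6 in a fit of only the 2 groups compared and 5 without both old control 5 and old LA 2. Those 6 were Cyp2d2, Cyp2d4, Cyp4a3, Cyp4f4 and Cyp20a1, all higher, and Cyp2j3, which was lower. With LA in old rats, where none was called, 2 were called without both of those arrays, Cyp2d2 and Cyp2d4. No gene's difference changed sign while called. The fit of only the 2 groups lost Cyp2a1, Cyp2b3, Cyp2d3 and Cyp4f1 with age under the control diet. Over all genes it called 3157 there, against 3911 in the main fit. With age under the LA diet it called 2699 against 2290. With LA it called 1718 against 677 in young rats and 0 against 100 in old rats. Each such fit has fewer arrays and takes the spread of its own 2 groups only. The cause of the lost calls was not tested. A different floor for lower bounds gave no value, since no called gene had a group mean under 4.

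The labels do not say what the animal numbers mark. Over 42 same-numbered pairs of arrays in different groups the correlation of deviations from group means ran from -0.57 to 0.51, with a median of 0.06 and 16 over 0.1. Over 294 pairs with different numbers the median was -0.008. Of 30 arrays, 17 correlated best with an array of their own number, although most arrays compared had another number. Arrays of the same number thus shared some structure, and its source was not tested. The main fit took no pairs because the labels name none. With the number as a replicate block, 16 and 11 genes were called with age under the control and LA diets, 2 and 0 with LA in young and old rats, and 0 for the dependence on age.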
